A study of Mus musculus with 4 samples.

Results

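The annexins are a family of 9 genes in these data, Anxa1 to Anxa8 and Anxa11, which were chosen by their symbols and by the levels and fold changes already seen in these libraries, with Anxa8 set apart from the rest because of its large difference between mammospheres and bulk cells. All 9 had 1 row in each of 2 deposited gene tables, of 22440 rows in the mammosphere and bulk table and of 11708 rows in the knockdown table. Since measured values chose the members, their levels and fold changes are given as a description and carry no test.

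Annexins are soluble proteins that bind acidic phospholipids, above all phosphatidylserine, when calcium rises. Each carries a core of repeated helical domains that holds the calcium sites, preceded by an N-terminal tail that differs between members and binds partners such as S100 proteins. They are known for linking membranes to each other and to the actin cytoskeleton, for vesicle traffic and for resealing torn plasma membranes. In the mammary gland, annexin A8 is known as a marker of ductal luminal progenitor cells and of basal-like breast cancers.

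The cells were MMTV-Myc mouse mammary tumour cells, which carry Myc as a transgene that the mammary tumour virus promoter expresses in mammary epithelium, and polyadenylated RNA was sequenced from 4 cultures with 1 library each. Mammosphere cells (day 20, genotype given as wild type) were kept as floating spheres on low attachment plates with EGF, bFGF and a supplement and were passaged with trypsin, whereas bulk cells (day 0, wild type) grew in medium with serum and insulin. Cbx8 shRNA cells (hairpin sh68) carried a lentiviral short hairpin RNA against Cbx8, a chromodomain protein of Polycomb repressive complex 1. Control shRNA cells (genotype given as wild type, shLuc) carried a hairpin that one label names for luciferase and another as scrambled. Both hairpin cultures were selected in puromycin, and the labels do not state if these cultures were attached or floating. Each condition rests on 1 cell line and the knockdown on 1 hairpin. With no replicates, each difference is one between 2 single libraries and has no measured spread.

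Values are FPKM, fragments scaled to transcript length and to the mapped fragments of the library, which allows levels of different genes to be compared within a library. The 2 tables were made separately and share no library, so fold changes stay within a table and levels from both are only placed side by side. The mammosphere library had 10495 rows at 1 FPKM or more and the bulk library 11306, against 10551 in the Cbx8 shRNA and 10553 in the control shRNA library. Cbx8 itself was at 1.23 FPKM in the Cbx8 shRNA library and 4.74 FPKM in the control shRNA library. Of the luminal epithelial markers, Krt8 and Krt18 ranged from 5.14 to 570.4 FPKM over the 4 libraries, whereas Epcam and Cdh1 did not exceed 1.06 FPKM in any of them. Other markers of that list varied: Krt19 ranged from 9.08 to 90.1 FPKM, Cldn3 from 0.276 to 24.9 FPKM, Cldn4 from 0.213 to 15.1 FPKM and Elf3 from 1.58 to 11.7 FPKM. Cldn7 and Ehf were at 0.769 FPKM or less in mammospheres and bulk cells.

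The promoters of 4 members are shown because their CpG content differs and because they belong to the member with the largest fold change (Anxa8), the most abundant pair (Anxa1 and Anxa2) and one of the steadier members (Anxa11). The sequences are RefSeq windows on build GRCm38.p6, from 250 bases before to 50 bases after the annotated start, read on the strand of the gene, with CpG dinucleotides in capitals. They lie at chr14:34085729-34086028 on the plus strand (Anxa8), chr19:20390622-20390921 on the minus strand (Anxa1), chr9:69453433-69453732 on the plus strand (Anxa2) and chr14:25841905-25842204 on the plus strand (Anxa11).
Anxa8: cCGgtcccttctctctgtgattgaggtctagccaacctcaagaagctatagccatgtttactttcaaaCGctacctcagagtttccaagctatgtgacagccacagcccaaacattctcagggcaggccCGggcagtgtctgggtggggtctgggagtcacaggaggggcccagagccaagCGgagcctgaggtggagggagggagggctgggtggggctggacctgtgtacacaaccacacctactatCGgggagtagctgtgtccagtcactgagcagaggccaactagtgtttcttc
Anxa1: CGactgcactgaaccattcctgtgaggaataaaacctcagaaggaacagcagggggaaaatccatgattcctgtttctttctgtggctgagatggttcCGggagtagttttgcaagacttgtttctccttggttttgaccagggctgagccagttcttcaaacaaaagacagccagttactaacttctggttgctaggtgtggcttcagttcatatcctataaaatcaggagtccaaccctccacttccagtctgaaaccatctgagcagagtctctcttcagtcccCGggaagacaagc
Anxa2: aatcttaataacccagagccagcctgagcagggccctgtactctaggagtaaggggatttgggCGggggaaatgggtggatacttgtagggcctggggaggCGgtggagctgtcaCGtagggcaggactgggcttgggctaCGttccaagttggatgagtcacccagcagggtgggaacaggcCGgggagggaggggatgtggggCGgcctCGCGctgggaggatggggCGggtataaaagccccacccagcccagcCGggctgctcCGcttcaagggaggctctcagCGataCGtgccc
Anxa11: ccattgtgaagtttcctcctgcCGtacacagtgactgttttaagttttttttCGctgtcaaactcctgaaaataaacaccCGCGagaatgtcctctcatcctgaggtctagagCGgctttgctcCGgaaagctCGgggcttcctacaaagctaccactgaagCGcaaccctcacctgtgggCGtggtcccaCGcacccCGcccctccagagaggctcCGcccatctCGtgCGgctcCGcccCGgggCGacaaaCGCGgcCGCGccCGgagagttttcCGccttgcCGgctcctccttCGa

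The Anxa1 window held 3 CpG dinucleotides, the Anxa8 window 5, the Anxa2 window 13 and the Anxa11 window 25. Anxa5 had 16, Anxa7 had 19 and Anxa4 had 20, the last 2 in the richer of 2 annotated starts, whose other windows had 4 for Anxa7 and 3 for Anxa4. Anxa3 and Anxa6 had no entry in the table. A match to the TATA motif TATAAA began 32 bases before the start of Anxa1 and 17 bases before that of Anxa2. This motif was found in 13.6% of all 32851 windows on either strand, and its use as a TATA box was not tested. The Anxa2 window also held TGAGTCA, the AP-1 motif (TGACTCA or TGAGTCA, present in 5.20% of windows), 95 bases before the start. The Anxa1 window held CATTCC, the reverse strand of the TEAD motif GGAATG (14.7% of windows), and the Anxa7 window held CACGTG, the E-box that Myc binds (7.15% of windows). None of these 4 motifs was in the windows of Anxa8, Anxa4, Anxa5 or Anxa11.

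In mammospheres, Anxa8 was nearly absent and 7 of the other 8 annexins were lower than in bulk cells, with Anxa6 the exception. Most rows were lower there too, 65.4% of the 4045 that the authors tested, so the shared direction is not particular to annexins. Anxa8 was at 0.327 FPKM in mammospheres and 127 FPKM in bulk cells, 389-fold lower as a plain ratio and −6.59 on the log2 scale with 1 FPKM added to each value, the scale of all log2 fold changes here. Anxa1, Anxa2 and Anxa3 were also at least 2-fold lower on that scale. Thus 4 of 9 members were at least 2-fold lower and 0 were at least 2-fold higher. Over all 4045 rows that the authors tested, all with 1 FPKM or more in a library, 16.2% were at least 2-fold lower and 3.73% at least 2-fold higher. Because the members were chosen with these fold changes known, nothing is read from the difference between 4 of 9 and that share.

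**Figure D1:**
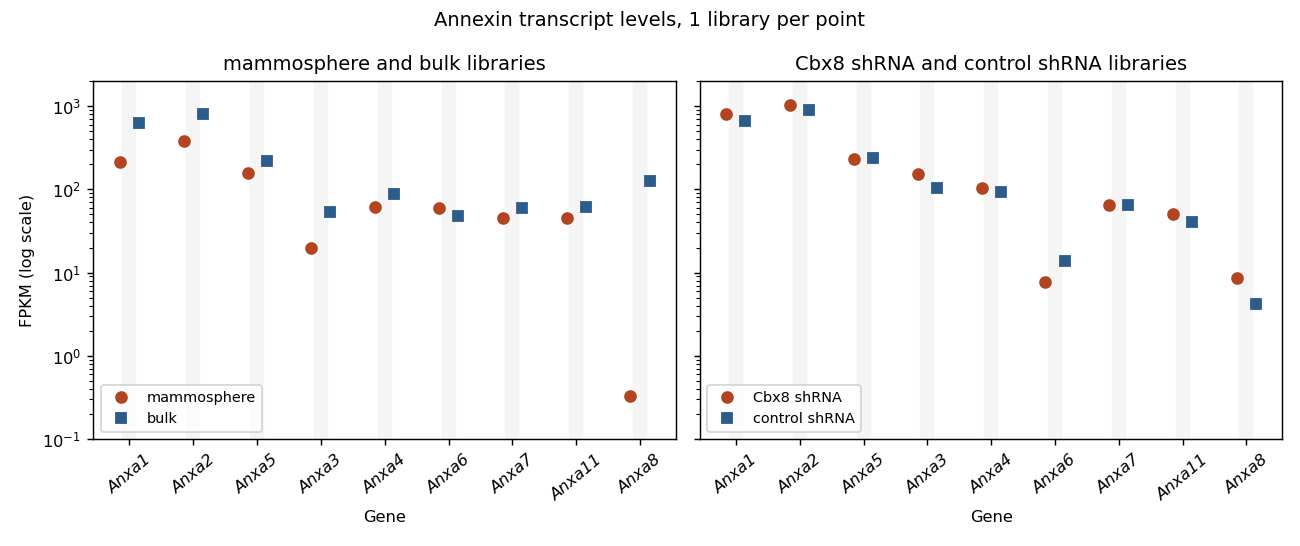
FPKM on a log axis of each annexin in the mammosphere and bulk libraries (left) and in the Cbx8 shRNA and control shRNA libraries (right), with 1 library per point and no error bars because there were no replicates. Anxa2, Anxa1 and Anxa5 are the 3 highest in each library, and Anxa8 is at 127 FPKM in bulk cells but at 8.64 FPKM or less in the other 3 libraries.

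The most abundant annexins were the same in all 4 libraries. Anxa2, whose product forms a tetramer with S100a10 and binds plasminogen and its activator at the cell surface, was at 386 FPKM in mammospheres and 799 FPKM in bulk cells (log2 fold change −1.05). Anxa1, known as a mediator of glucocorticoid action that limits inflammation through formyl peptide receptors, was at 212 FPKM in mammospheres and 622 FPKM in bulk cells (−1.55). Anxa5, the phosphatidylserine binder used as a probe of dying cells, was at 156 FPKM in mammospheres and 217 FPKM in bulk cells (−0.47). Anxa2 and Anxa1 were therefore past the 2-fold limit and Anxa5 was not.

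Anxa3, known from neutrophils, was at 20.0 FPKM in mammospheres and 53.1 FPKM in bulk cells (log2 fold change −1.37). Anxa4, known from secretory and ductal epithelia, was at 60.9 FPKM in mammospheres and 88.9 FPKM in bulk cells (−0.54). The annexins with long N-terminal tails, Anxa7 and Anxa11, were close to each other in both libraries. Anxa7, also called synexin, was at 44.8 FPKM in mammospheres and 60.2 FPKM in bulk cells (−0.42). Anxa11, which tethers RNA granules to lysosomes, was at 45.0 FPKM in mammospheres and 61.9 FPKM in bulk cells (−0.45). Anxa6, the annexin with a doubled core and a scaffold for Ras GTPase-activating protein, was at 59.0 FPKM in mammospheres and 48.5 FPKM in bulk cells (0.28) and was the only member with a positive value.

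The fold changes of the 8 members besides Anxa8 thus lay between −1.55 and 0.28, while Anxa8 stood at −6.59. Of 4045 rows, 8 had a lower value than Anxa8, which ranked 9th from the lowest. Anxa1 ranked 368th, Anxa3 425th and Anxa2 622nd, and Anxa6 lay above 81.1% of rows. The median over the 9 members was −0.54, or −0.51 over the 8 without Anxa8, beside −0.23 over all 4045 rows. In the authors' deposited table, Anxa8 was listed with q = 0, Anxa1 q = 0.0839, Anxa3 q = 0.0902 and Anxa2 q = 0.485, and the other 5 members had q between 0.709 and 0.792.

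**Figure D2:**
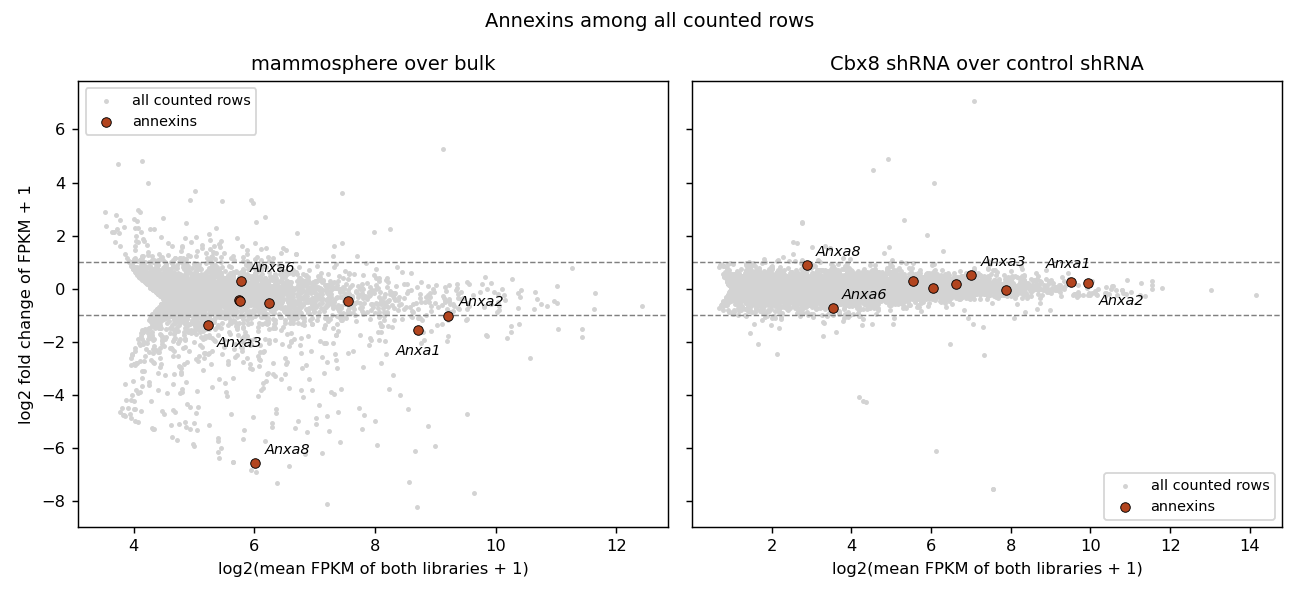
Log2 fold change of FPKM + 1 against the log2 mean FPKM of both libraries, for the mammosphere over the bulk library (left) and the Cbx8 shRNA over the control shRNA library (right), with all counted rows in grey, annexins in red and dashed lines at 2-fold. Anxa8 lies at −6.59 on the left, apart from the other annexins at −1.55 to 0.28, and no annexin passes the dashed lines on the right.

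The scaling between these libraries moves the values. The median log2 ratio of rows with 1 FPKM or more in both libraries was −0.19, and the summed FPKM of all rows in mammospheres was 0.720 times that in bulk cells. Centred on that median, Anxa2 was at −0.86 and no longer 2-fold lower, whereas Anxa1, Anxa3 and Anxa8 remained so and Anxa6 was at 0.46. Over all rows, rows at least 2-fold higher were 18.8% of those past 2-fold in either direction, 29.5% after centring and 38.1% with upper quartiles set equal.

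Anxa2 and Anxa1 made up most of the family's total in each library. The 9 annexins summed to 984 FPKM in mammospheres, 0.305% of the FPKM of all rows there, and to 2078 FPKM in bulk cells, 0.464% of the FPKM of all rows there. Anxa1 and Anxa2 together made up 60.8% of the annexin total in mammospheres and 68.4% in bulk cells. The share of Anxa5 was 15.9% in mammospheres and 10.5% in bulk cells, and that of Anxa6 was 5.99% in mammospheres and 2.33% in bulk cells. Anxa8 made up 0.0332% of the annexin total in mammospheres and 6.11% in bulk cells, where it was the 4th most abundant member. The span from the highest to the lowest member was 1180.4-fold in mammospheres and 16.5-fold in bulk cells.

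Markers of other cell types differed between the same libraries. Leukocyte markers were at least 2-fold lower in mammospheres for 14 of 15 genes, beside 17.2% of all 11630 rows of any status with 1 FPKM or more in a library, with a summed level of 18.6 FPKM in mammospheres and 451 FPKM in bulk cells, and 4 of them, Tyrobp, Fcer1g, Emr1 and Cd3e, were listed at 0 in mammospheres. The largest differences among them were in Lyz2 (0.0737 FPKM in mammospheres, 122 FPKM in bulk cells) and in Cd74, whose row is shared with a microRNA (0.0353 FPKM in mammospheres, 164 FPKM in bulk cells). The leukocyte marker that was not lower was S100a8, at 9.98 FPKM in mammospheres and 9.15 FPKM in bulk cells. Fibroblast markers were at least 2-fold lower for 10 of the 11 with 1 FPKM or more, with 4.32 FPKM in all in mammospheres and 533 FPKM in bulk cells, and 3 of them, Lum, Thy1 and Postn, were listed at 0 in mammospheres, while Col3a1 was at 0.0623 FPKM in mammospheres and 128 FPKM in bulk cells and Col1a1 at 0.0589 FPKM in mammospheres and 97.7 FPKM in bulk cells. Endothelial markers summed to 0.24 FPKM in mammospheres and 6.73 FPKM in bulk cells, with Tek, Cldn5 and Emcn, 3 of the 6, listed at 0 in mammospheres, Pecam1 at 0.0593 FPKM in mammospheres and 3.54 FPKM in bulk cells, and Cdh5 at 0.0881 FPKM in mammospheres and 1.5 FPKM in bulk cells. Basal and myoepithelial markers summed to 6.52 FPKM in mammospheres and 52.8 FPKM in bulk cells, with Krt14 at 0.0534 FPKM in mammospheres and 18.8 FPKM in bulk cells and Acta2 at 6.33 FPKM in mammospheres and 29.0 FPKM in bulk cells. Luminal markers summed to 75.8 FPKM in mammospheres and 945 FPKM in bulk cells, with Krt8 at 5.14 FPKM in mammospheres and 334 FPKM in bulk cells and Cldn4 at 0.213 FPKM in mammospheres and 15.1 FPKM in bulk cells. Of 10 luminal markers, 6 of the 8 at 1 FPKM or more were at least 2-fold lower. The others of these 8 were Krt19, at 9.65 FPKM in mammospheres and 9.08 FPKM in bulk cells, and Epcam, at 0.0908 FPKM in mammospheres and 1.06 FPKM in bulk cells. The part of these cell types in the annexin values was not tested, and fewer cells of a type cannot be told apart from less RNA per cell in a bulk sample.

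In the Cbx8 knockdown the 2 members with the largest differences, Anxa8, which was higher, and Anxa6, which was lower, were the 2 at the lowest levels, and no member reached 2-fold. Anxa8 was at 8.64 FPKM in the Cbx8 shRNA library and 4.18 FPKM in the control shRNA library, 2.07-fold higher as a plain ratio but 0.90 on the log2 scale with 1 FPKM added. Anxa6 was at 7.71 FPKM in the Cbx8 shRNA library and 13.6 FPKM in the control shRNA library (log2 fold change −0.75). Of the 9 members, 0 were at least 2-fold lower and 0 at least 2-fold higher. Among all 10685 rows with 1 FPKM or more in a library, 0.449% were at least 2-fold lower and 0.299% at least 2-fold higher, so that a count of 0 among 9 is near the background and says nothing particular about the annexins. Against these rows, Anxa8 ranked 54th from the highest, above 99.5% of them, and Anxa6 122nd from the lowest, with 1.13% of them below it. In the authors' deposited table Anxa8 had p = 0.013 and q = 0.829, and Anxa6 had p = 0.0124 and q = 0.809.

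Anxa3 was at 152 FPKM in the Cbx8 shRNA library and 105 FPKM in the control shRNA library (log2 fold change 0.53), above 97.3% of all rows, with p = 0.0472 and q = 0.999 in the authors' deposited table. The abundant members moved less. Anxa1 was at 795 FPKM in the Cbx8 shRNA library and 669.7 FPKM in the control shRNA library (0.25), and Anxa2 at 1042 FPKM in the Cbx8 shRNA library and 903 FPKM in the control shRNA library (0.21). Anxa11 was at 50.3 FPKM in the Cbx8 shRNA library and 41.1 FPKM in the control shRNA library (0.29), and Anxa4 at 104 FPKM in the Cbx8 shRNA library and 92.8 FPKM in the control shRNA library (0.16). Anxa7, at 65.3 FPKM in the Cbx8 shRNA library and 64.7 FPKM in the control shRNA library (0.01), and Anxa5, at 230.1 FPKM in the Cbx8 shRNA library and 238 FPKM in the control shRNA library (−0.05), differed least. Each of these 6 members had q = 0.999 in the authors' deposited table.

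The annexin total was 2456 FPKM in the Cbx8 shRNA library, 0.525% of the FPKM of all its rows, and 2132 FPKM in the control shRNA library, 0.457% of the FPKM of all its rows. The median log2 fold change over the 9 members was 0.21, beside −0.006 over all counted rows. Anxa1 and Anxa2 made up 74.8% of the annexin total in the Cbx8 shRNA library and 73.8% in the control shRNA library. Anxa8 made up 0.352% in the Cbx8 shRNA library and 0.196% in the control shRNA library. Of the marker lists, 4 of 15 leukocyte genes, 5 of 12 fibroblast genes and none of 6 endothelial genes had a row in this table, which lists no row at 0. The leukocyte rows summed to 43.9 FPKM in the Cbx8 shRNA library and 28.7 FPKM in the control shRNA library, of which Cd14 was 41.0 FPKM in the Cbx8 shRNA library and 27.1 FPKM in the control shRNA library, and S100a8 was 2.33 FPKM in the Cbx8 shRNA library and 0.845 FPKM in the control shRNA library. Fibroblast rows summed to 76.4 FPKM in the Cbx8 shRNA library and 63.3 FPKM in the control shRNA library. Most of this was Fbln2, at 73.4 FPKM in the Cbx8 shRNA library and 56.7 FPKM in the control shRNA library. In the other direction, Col3a1 was at 0.675 FPKM in the Cbx8 shRNA library and 2.33 FPKM in the control shRNA library, and Mmp2 at 1.32 FPKM in the Cbx8 shRNA library and 2.81 FPKM in the control shRNA library. Luminal rows summed to 435 FPKM in the Cbx8 shRNA library and 442 FPKM in the control shRNA library. Of the 6 at 1 FPKM or more, 4 were lower and 2 higher in the knockdown. The largest differences were in genes at low levels. Elf3 was at 1.58 FPKM in the Cbx8 shRNA library and 2.83 FPKM in the control shRNA library, and Epcam at 0.0427 FPKM in the Cbx8 shRNA library and 0.338 FPKM in the control shRNA library. The basal keratin Krt14, the only basal marker with a row, was at 10.5 FPKM in the Cbx8 shRNA library and 1.09 FPKM in the control shRNA library, and its part in the Anxa8 value was not tested.

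**Figure D3:**
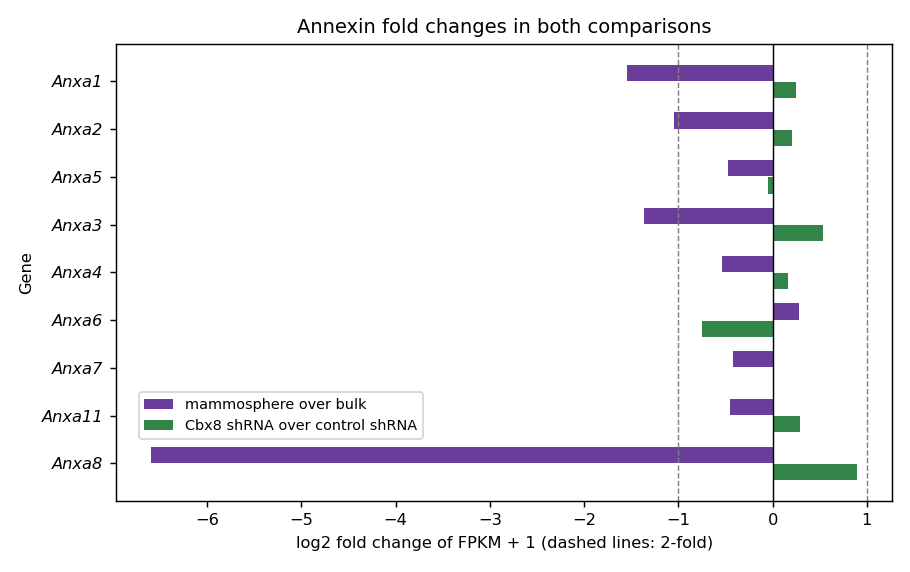
Log2 fold change of FPKM + 1 of each annexin, with the mammosphere over the bulk library above the Cbx8 shRNA over the control shRNA library and dashed lines at 2-fold. In 7 of 9 genes the value is negative in mammospheres and positive in the knockdown, Anxa6 has the opposite signs (0.28 and −0.75), and Anxa5 is negative in both.

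Set side by side, the comparisons had opposite signs for 8 of 9 members. Anxa1, Anxa2, Anxa3, Anxa4, Anxa7, Anxa8 and Anxa11 were lower in mammospheres than in bulk cells and higher in the knockdown than in its control, although the difference of Anxa7 in the knockdown was 0.01. Anxa6 was higher in mammospheres and lower in the knockdown. Of 3952 rows counted in both tables, 58.0% had opposite signs, and 37.7% were lower in mammospheres and higher in the knockdown. The comparisons share no library.

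The order of the members also differed between the tables below the leading 3. Anxa8 was the 4th of 9 in bulk cells, the lowest in mammospheres and in the control shRNA library, and the 8th in the Cbx8 shRNA library. Anxa6 was the 5th of 9 in mammospheres and the lowest in bulk cells, and it was the lowest in the Cbx8 shRNA library and the 8th in the control shRNA library. Anxa3 was the 8th in mammospheres and in bulk cells and the 4th in both hairpin libraries. Levels between the separately made tables have no common scale, and without replicates no pair of neighbours in any of these orders can be said to differ beyond its spread.

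Genes whose products work with annexins were followed in the same libraries. S100a10 is the partner that annexin A2 protects from degradation, and its fold change in mammospheres was close to the −1.05 of Anxa2. S100a10 was at 267 FPKM in mammospheres and 571 FPKM in bulk cells (log2 fold change −1.10), so that its level was 0.691 times that of Anxa2 in mammospheres and 0.714 times in bulk cells. In the hairpin libraries S100a10 was at 1054 FPKM in the Cbx8 shRNA library and 967 FPKM in the control shRNA library, which is 1.01 times Anxa2 in the Cbx8 shRNA and 1.07 times in the control shRNA library. S100a11, the partner of annexin A1, was at 153 FPKM in mammospheres and 291 FPKM in bulk cells (−0.92). Its level was 0.721 times that of Anxa1 in mammospheres and 0.468 times in bulk cells.

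Ahnak, the giant scaffold that docks on the annexin A2 and S100a10 complex, was at 15.4 FPKM in mammospheres and 46.9 FPKM in bulk cells (log2 fold change −1.54). S100a4, which also binds annexin A2, was at 292 FPKM in mammospheres and 749 FPKM in bulk cells (−1.35), and S100a6, a partner of annexin A11, at 829.8 FPKM in mammospheres and 1292 FPKM in bulk cells (−0.64). The calcium sensors sorcin (Sri, −0.86) and Pdcd6 (−0.32), which bind annexins A7 and A11, did not reach 2-fold. Rasa1, the Ras GTPase-activating protein that annexin A6 recruits, was at 9.04 FPKM in mammospheres and 19.4 FPKM in bulk cells (−1.03). The phospholipase Pla2g4a, which annexin A1 inhibits, was at 16.6 FPKM in mammospheres and 13.0 FPKM in bulk cells (0.32). Of these 9 partners, 4 were at least 2-fold lower and 0 at least 2-fold higher in mammospheres (median −0.92), beside 17.2% lower and 3.55% higher among all 11630 rows of any status with 1 FPKM or more in a library (median −0.24). Among the 4, S100a10 (−1.10) and Rasa1 (−1.03) lay near the limit, as did Anxa2 (−1.05), which was at −0.86 after centring. The count of 4 thus depends on the scaling of the libraries and was not repeated after centring. In the knockdown none of the 9 partners reached 2-fold and their median was 0.10.

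The formyl peptide receptor genes Fpr1 and Fpr2, through which annexin A1 acts on leukocytes, were both listed at 0 in mammospheres. In bulk cells Fpr1 was at 0.908 FPKM and Fpr2 at 1.84 FPKM, and neither had a row in the knockdown table. In the plasminogen system, Plat, the tissue activator that annexin A2 binds, was at 63.1 FPKM in mammospheres and 330.3 FPKM in bulk cells (log2 fold change −2.37). The urokinase receptor Plaur was at 42.9 FPKM in mammospheres and 281 FPKM in bulk cells (−2.68), and urokinase itself, Plau, at 166 FPKM in mammospheres and 271 FPKM in bulk cells (−0.70). Plasminogen, Plg, was listed at 0 in both libraries. In the hairpin libraries Plaur was at 146.5 FPKM with the Cbx8 shRNA and 106 FPKM with the control shRNA (0.46), Plat at 98.7 FPKM with the Cbx8 shRNA and 77.8 FPKM with the control shRNA (0.34), and Plau at 138 FPKM with the Cbx8 shRNA and 115 FPKM with the control shRNA (0.27).

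**Figure D4:**
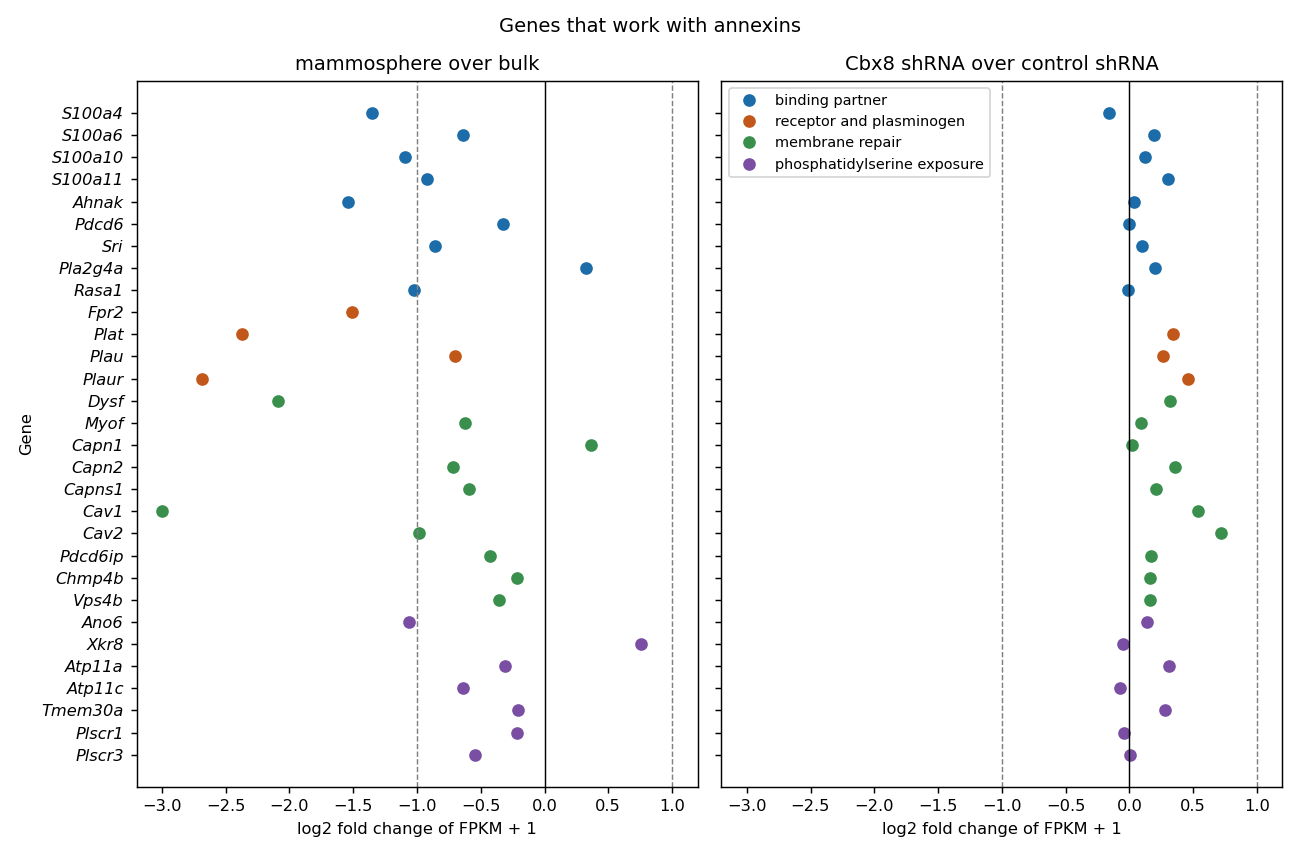
Log2 fold change of FPKM + 1 of genes that bind annexins, act with them in the plasminogen system, reseal membranes or expose phosphatidylserine, for the mammosphere over the bulk library (left) and the Cbx8 shRNA over the control shRNA library (right), with 1 point per gene that had 1 FPKM or more in a library. Most points lie below 0 on the left, with Cav1 at −3.00 and Plaur at −2.68, and all lie within 2-fold on the right. In the left comparison 65.2% of all 11630 rows of any status with 1 FPKM or more in a library were below 0.

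Of 10 measured membrane repair genes, 2 were at least 2-fold lower in mammospheres and 0 higher (median log2 fold change −0.61), a count near the background of 17.2% lower and 3.55% higher among the 11630 rows. The caveolin Cav1 was at 35.9 FPKM in mammospheres and 294 FPKM in bulk cells (−3.00), and dysferlin, Dysf, the repair protein that binds annexins A1 and A2 in muscle, at 4.05 FPKM in mammospheres and 20.5 FPKM in bulk cells (−2.09). In the knockdown all 10 had positive values, none past 2-fold (median 0.19), whereas 51.2% of all 10685 counted rows had negative values. The list was chosen with earlier results of these data known, so nothing is read from that count. The largest differences were in Cav2, at 168 FPKM in the Cbx8 shRNA library and 102 FPKM in the control shRNA library (0.72), and Cav1, at 216 FPKM in the Cbx8 shRNA library and 148 FPKM in the control shRNA library (0.54). Of 7 measured genes that place or expose phosphatidylserine, the lipid that annexins bind, 1 was at least 2-fold lower in mammospheres, again near the 17.2% of the 11630 rows. This was the scramblase Ano6, at 27.1 FPKM in mammospheres and 57.7 FPKM in bulk cells (−1.06), while the caspase-activated Xkr8 was at 2.14 FPKM in mammospheres and 0.859 FPKM in bulk cells (0.76). The median of the 7 was −0.31 in mammospheres and 0.004 in the knockdown, where none reached 2-fold and the flippase genes Atp11a, at 18.3 FPKM in the Cbx8 shRNA library and 14.6 FPKM in the control shRNA library (0.31), and Tmem30a, at 75.6 FPKM in the Cbx8 shRNA library and 62.0 FPKM in the control shRNA library (0.28), had the largest differences.

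Anxa8 (mm9 chromosome 14, 34899175 to 34913754) shares its chromosome with Anxa7 (21274482 to 21299355) and Anxa11 (26661640 to 26706290), whose fold changes in mammospheres were −0.42 and −0.45. The other members are on chromosomes 3 (Anxa5), 5 (Anxa3), 6 (Anxa4), 9 (Anxa2), 11 (Anxa6) and 19 (Anxa1). Within 500 kb of Anxa8, 3 rows had 1 FPKM or more in mammospheres or bulk cells, all on the side of higher coordinates. The nearest, Fam35a, lay 136 kb away and was at 2.13 FPKM in mammospheres and 2.98 FPKM in bulk cells (log2 fold change −0.35). The row of Glud1 and Gm3219 was at 64.8 FPKM in mammospheres and 142 FPKM in bulk cells (−1.12), and Bmpr1a, a BMP receptor, at 24.5 FPKM in mammospheres and 36.0 FPKM in bulk cells (−0.54). None of the 3 differed by more than 0.05 on the log2 scale in the knockdown.

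The rows most like Anxa8 over the 4 libraries were not annexins. By Euclidean distance over log2(FPKM + 1), among 11707 rows in both tables, the 5 nearest were Pdk4, Tnfaip3, C1qtnf1, Nedd9 and Crabp2, at distances of 1.29 to 1.88. Pdk4, a kinase that inhibits pyruvate dehydrogenase, was at 0.0571 FPKM in mammospheres, 98.1 FPKM in bulk cells, 3.27 FPKM with the Cbx8 shRNA and 3.46 FPKM with the control shRNA. Tnfaip3, an inhibitor of NF-kappaB signalling, was at 1.71 FPKM in mammospheres, 109.5 FPKM in bulk cells, 4.09 FPKM with the Cbx8 shRNA and 2.77 FPKM with the control shRNA. Because the 5 rows were picked on these same levels, all had a low mammosphere level and a high bulk level, with log2 fold changes of −6.55 to −4.36. Their knockdown values of −0.28 to 0.43 lay below the 0.90 of Anxa8, as did those of 99.5% of all counted rows. Of the other annexins, Anxa6 was nearest to Anxa8, at a distance of 5.86.

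Across the 7 annexins with a promoter entry, those at least 2-fold lower in mammospheres had the fewest CpG dinucleotides. Anxa1, Anxa8 and Anxa2 had 3, 5 and 13, and Anxa5, Anxa7, Anxa4 and Anxa11, whose log2 fold changes lay between −0.54 and −0.42, had 16 to 25. The order is a description of 7 genes and depends on taking the richer of the starts listed for Anxa4 and Anxa7. It leaves out Anxa3, which was also at least 2-fold lower but had no entry. Anxa2 was no longer 2-fold lower after centring (−0.86) or with equal upper quartiles (−0.73). Over all tested rows with an entry, again with the richer start, the median was 21.5 CpG dinucleotides for the 462 rows at least 2-fold lower (quartiles 12 and 30.8), 20 for the 96 rows at least 2-fold higher (quartiles 12 and 29) and 24 for the 2400 rows under 2-fold (quartiles 18 and 32). Rows past 2-fold in either direction thus had fewer CpG dinucleotides at the median than rows under 2-fold. Of 2958 such rows, 2.70% had fewer than the 5 of Anxa8 and 1.32% fewer than the 3 of Anxa1. Over all 32851 windows, expressed gene or not and with every listed start rather than the richer one, the median was 7 CpG dinucleotides, close to the 5 of Anxa8.

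Of the remaining annexin genes, which are no members here, Anxa9 was at 1.48 FPKM in mammospheres and 2.20 FPKM in bulk cells, and at 3.49 FPKM in the Cbx8 shRNA library and 3.26 FPKM in the control shRNA library. Anxa10 was listed at 0 in mammospheres and bulk cells. Anxa13 was listed at 0 in mammospheres and was at 0.0167 FPKM in bulk cells. Neither Anxa10 nor Anxa13 had a row in the knockdown table.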

How the data were processed

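Polyadenylated RNA of 4 MMTV-Myc cultures was measured, with 1 library per group. Per the submitters' processing notes, the tools named for build mm9 were TopHat 1.4.0, Cufflinks 1.3.0, Cuffdiff (version listed as 0.0.7) and FastQC 0.10.0, and the labels used here give no settings for them. The authors deposited 2 Cuffdiff tables with FPKM values per row, and the p-values and q-values quoted are the authors' own from those deposited tables. The values headed D0MS were taken as the bulk library, since bulk cells are the only day 0 sample and the heading names MS against bulk. Depth is unknown, since the tables hold no counts, so no counting interval is given.

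Log2((FPKM + 1)/(FPKM + 1)) was computed within each table, and a row was counted when its status was OK and it had 1 FPKM or more in either library. With 1 library per group no test was run. The share of all counted rows past 2-fold stands beside the members' counts. For a symbol in several rows the highest mean FPKM row was used. In the lists of partners and markers, rows of any status with 1 FPKM or more were counted. The text names all 9 members, other annexins, every partner, receptor and plasminogen gene with a row, the 2 members of each other list with the largest change in each comparison, the nearest row to Anxa8 and the 5 rows most like it. Other names, among them Bmpr1a, Glud1 and the markers listed at 0, and the promoter motifs and CpG counts were chosen after values were seen. Members and lists were chosen with earlier results of these data known. Promoters are RefSeq windows (GRCm38.p6), and 7 of 9 members matched. Where a symbol has several windows, the one with most CpG was used. Counting was tested on simulated data. Computation used Python 3.11.15, pandas 2.3.3, numpy 2.4.6 and matplotlib 3.10.9.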

Additional observations from a re-analysis of the deposited data

How the results depend on the processing

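Alternatives were pseudocounts of 0.1 and 5 FPKM, no FPKM minimum or one of 5, fold changes centred on the median row, equal upper quartiles, rows of any status, FPKM summed over the rows of a symbol, fold limits of 1.5 and 4 and the authors' own calls. The members' log2 fold changes kept their sign, and 141 of 144 values kept their side of the 2-fold limit. Many of these values could not move. The FPKM minimum and the row status do not enter a fold change, and each member had 1 row, so summing changed nothing. An equal pseudocount in both libraries cannot change a sign, so only centring and equal upper quartiles could have done so. The exceptions were Anxa2 in mammospheres (−0.86 centred and −0.73 with equal upper quartiles) and Anxa8 in the knockdown (1.03 with 0.1 FPKM added). In mammospheres Anxa8 ranged from −8.22 to −4.63. The count at least 2-fold lower in mammospheres, 4, was 1 with a fold limit of 4 and 1 by the authors' calls, Anxa8 each time. The knockdown counts of 0 became 1 lower (Anxa6) and 1 higher (Anxa8) with a fold limit of 1.5, and 1 higher (Anxa8) with 0.1 FPKM added. No paired analysis was possible because each group has 1 library, and for the same reason no library could be left out. Depth is unknown, so the precision of low values such as Anxa8 in mammospheres is unknown too.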
